A study of Rattus norvegicus with 21 samples.

Results

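The genes described here encode the ligands and receptors of axon guidance, namely semaphorins, plexins, neuropilins, ephrins, Eph receptors, Slits, Robo receptors, netrins and the netrin receptors Dcc and Unc5. Members were taken by gene name, by a rule that was written with earlier results of these data known. Under that rule a measured value decided entry only for Slit2. Every gene whose symbol in the array annotation begins with Sema, Plxn, Epha, Ephb, Efna, Efnb, Robo or Unc5 was taken, together with Nrp1, Nrp2, the Slit genes, Ntn1 and Dcc. This gave 55 genes of the 14507 that carry a single symbol on the array, and Slit2 was found through a supplementary gene list of the study because the annotation leaves its probe set unnamed. That list holds probe sets that passed a cut-off of 2-fold in these arrays, so the measured fall of Slit2 let it enter. Unnamed guidance genes that changed less could not enter this way. Unc50 and Unc5cl entered by their first letters alone and are not netrin receptors. Of the 55 genes, 27 encode ligands and 26 encode receptors.

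The study measured RNA of pituitary adenomas of MENX rats, which are homozygous for a mutation of Cdkn1b, the gene of the cell cycle inhibitor p27, against pituitaries of wild-type rats. Both groups share the mixed strain Sprague–Dawley white eye/Wistar–Kyoto and were kept without specific pathogens. The 5 wild-type pituitaries came from rats of 6 months, 2 females and 3 males. The 16 lesions carried 9 sample numbers, read here as animals, from 6 females and 3 males of 7 to 12 months, and lesions of one number were averaged into adenomas 1 to 9. The paper gives more rats and a narrower range of ages than these labels. The number of animals used here and their ages therefore rest on the labels alone. No adenoma was as young as the wild-type rats and no mutant pituitary without a lesion was measured, so genotype, age and tumor cannot be told apart. The adenomas were dissected from the pituitary, by methods text that speaks of both macro- and microdissection, and may hold other pituitary cells, and in such bulk tissue fewer cells of a type and less RNA per cell cannot be told apart.

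Axon guidance ligands were first known as cues that attract or repel growing neurites, and most act at short range on receptors of the neighbouring cell. Semaphorins signal through plexins, class 3 semaphorins mostly with a neuropilin as coreceptor, ephrins through Eph receptor tyrosine kinases, Slits through Robo receptors, and netrins through Dcc and Unc5. The same proteins steer migrating cells and blood vessels outside the nervous system, and several have been studied as regulators of tumor cells.

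The 21 arrays had medians between 6.36 and 6.53 on the log2 scale and correlated with each other at 0.94 to 0.99. The mean of the target gene Cdkn1b was 8.91 ± 0.19 for the wild type (SD, n = 5) and 9.23 ± 0.17 for the adenomas (SD, n = 9). Its RNA was thus higher in the adenomas (log2 fold change 0.33, limma adjusted p = 0.0324), which tells nothing of the mutant protein. Of the 5 measured gonadotroph markers Cga, Gnrhr and Nr0b1 were higher (log2 fold changes 0.91, 1.40 and 1.56) and Lhb and Fshb lower (-2.24 and -2.38) in the adenomas. All 4 measured somatotroph markers were lower, with a list mean of 9.89 to 10.3 in wild-type pituitaries and 8.24 to 9.85 in adenomas. All 3 measured corticotroph markers were lower too, with 8.78 to 9.18 in wild-type pituitaries and 6.09 to 7.83 in adenomas, and Pomc fell by 3.75. Of the lactotroph markers 1 of 4 was lower, of the thyrotroph markers 1 of 3 and of the melanotroph markers 2 of 3. The means of these lists overlapped between the groups, and Prl was not called (log2 fold change 0.08). Macrophage markers were higher for 7 of 10 genes, and folliculostellate and stem cell markers lower for 4 of 5. The part of other cell types in the results below was not tested.

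Of the 55 genes, 9 were up-regulated (16.4%) and 14 down-regulated (25.5%) relative to wild-type pituitaries. A gene was called where limma gave p under 0.05, adjusted over every probe set by Benjamini-Hochberg. Of all 29214 probe sets, 8.49% were higher and 9.06% lower by the same rule. The up-regulated genes were Slit1, Sema3a, Epha2, Sema7a, Sema4c, Sema4g, Sema4a, Plxnd1 and Unc5b. The down-regulated genes were Sema3e, Slit2, Sema5a, Plxna2, Plxna3, Efna5, Unc5c, Robo1, Sema6c, Plxnb2, Efnb3, Epha8, Ntn1 and Efna4. Slit2 counts among these 14, but its measured fall let it enter, so its fall was fixed beforehand. Without wild-type pituitary 3 the number of down-regulated genes was 8, and without wild-type pituitary 4 it was 9. The remaining 32 genes were not called, among them 7 with an unadjusted p under 0.05. Ligands made 6 of the 9 rises and 8 of the 14 falls. For 5 genes every adenoma value lay above every wild-type value, against 2.66% of all probe sets, and for 6 genes every adenoma value lay below, against 2.16% of all probe sets. Slit2 is among these 6. Both counts use values averaged by sample number, and single lesions of Sema3e, Efna5 and Unc5c reached into the wild-type range. The median log2 fold change over the 55 genes was -0.06, beside -0.03 over all probe sets. No filter on low values was applied, and 30 of the 55 genes had a mean above the median of all probe sets.

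**Figure D1:**
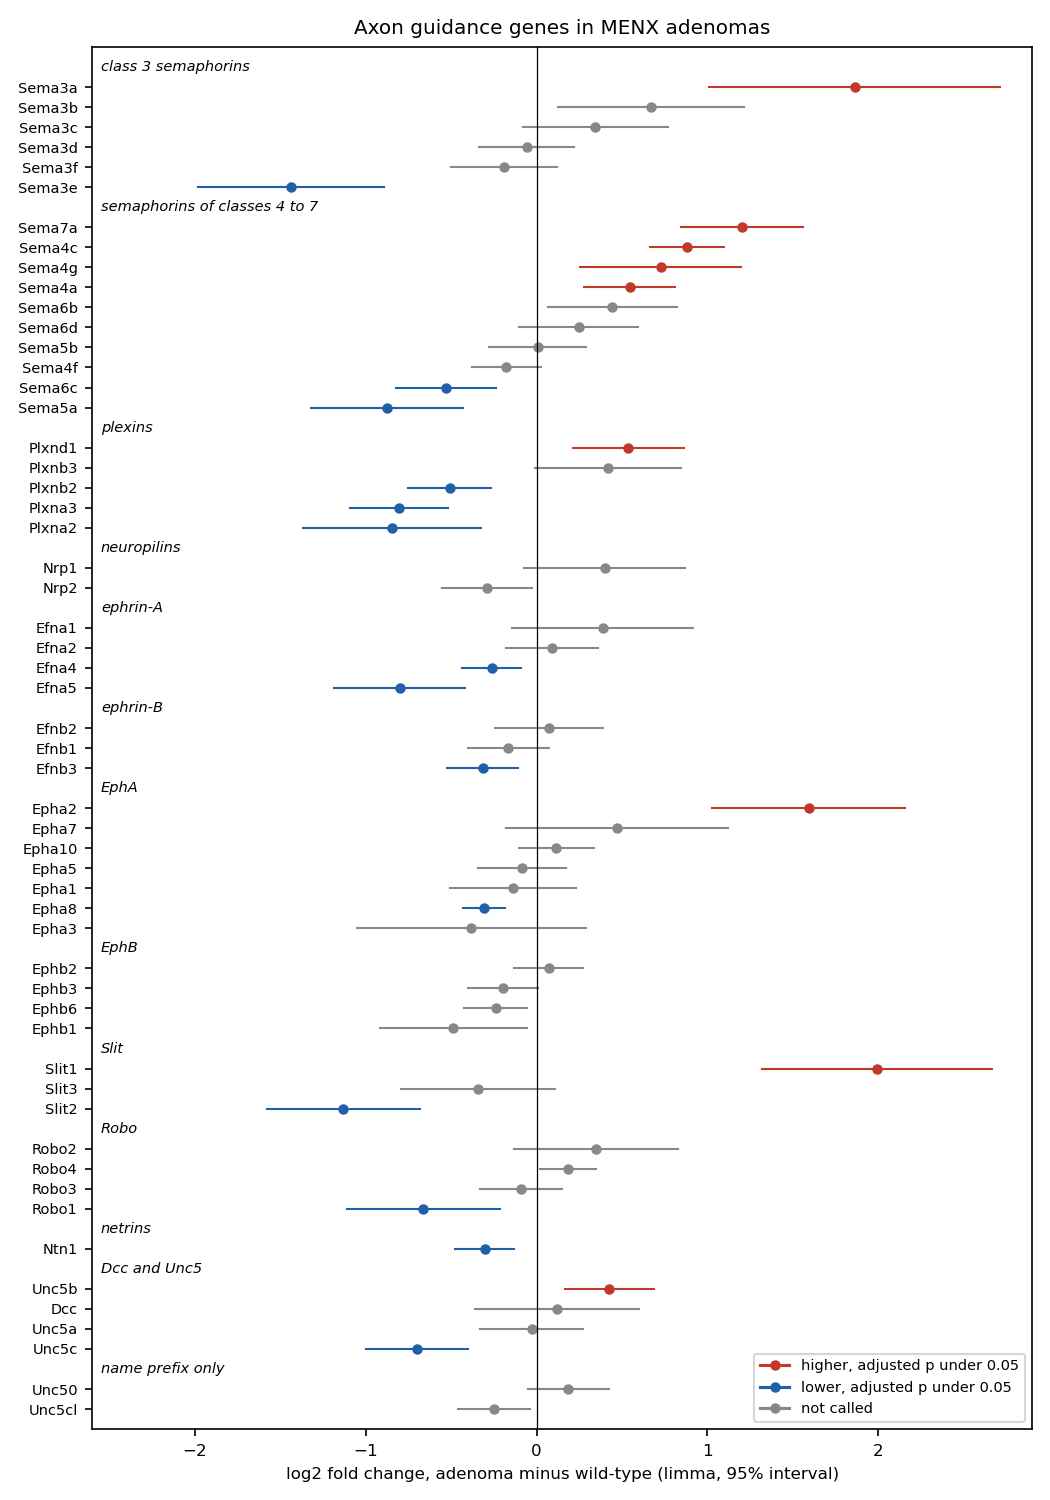
The plot gives the log2 fold change of adenomas over wild-type pituitaries for all 55 genes, ordered by family, with 95% intervals from limma. Slit1 and Sema3a lie farthest to the right and Sema3e and Slit2 farthest to the left, so the Slit and the class 3 semaphorin families each hold a strong rise and a strong fall.

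The class 3 semaphorins, which are secreted, held 1 rise and 1 fall among 6 measured genes. Sema3a, which binds Nrp1 and signals through A-type plexins, was at 8.68, 7.01, 6.51, 6.44 and 7.98 in wild-type pituitaries 1 to 5. In adenomas 1 to 9 Sema3a was at 8.12 at the lowest, 8.97 at the median and 10.4 at the highest, which is 8 of 9 values above all wild-type values. The highest wild-type values, of pituitaries 1 and 5, were those of the females. Its log2 fold change was 1.86 with a standard error of 0.40, or 3.63-fold (limma adjusted p = 0.0057).

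Sema3e signals through Plxnd1 without a neuropilin and restrains the growth of vessels. Its wild-type values were 9.05, 8.66, 8.83, 8.76 and 8.48, and its adenoma values ran from 6.36 over a median of 7.29 to 8.19. The averaged values did not overlap, but the single lesion labelled 1 was at 8.52, above the lowest wild-type value. The log2 fold change was -1.44 (standard error 0.26, limma adjusted p = 0.00177), that is, 2.71-fold lower. Sema3a and Sema3e, which both lie on chromosome 4, thus moved in opposite directions. Sema3d, the protein-coding gene next to Sema3a in the reference annotation, had means of 6.20 ± 0.29 (wild type, SD, n = 5) and 6.14 ± 0.22 (adenomas, SD, n = 9) and was not called.

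Sema3b, a secreted semaphorin often lost in other tumors, was not called (log2 fold change 0.67, limma adjusted p = 0.083), but it was with the prefix of the sample numbers as a block (0.75, adjusted p = 0.0265). Its adenoma values nevertheless exceeded all wild-type values in 8 of 9 numbers, and they were at 7.43, 7.82 and 7.56 in adenomas 7, 8 and 9, all from females of 12 months with the prefix 09, against 6.62 at most in the other 6. Sema3c and Sema3f had log2 fold changes of 0.34 and -0.19 and were not called.

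Semaphorins of classes 4 to 7 are bound to the membrane. Of the 10 measured genes, 4 were up-regulated and 2 down-regulated. Sema7a, which is held by a lipid anchor and binds integrins and Plxnc1, had wild-type values of 6.36, 6.63, 6.37, 6.75 and 6.17. Its adenoma values began at 7.30, with a median of 7.53 and a maximum of 8.24, and lay above all wild-type values in 9 of 9. The log2 fold change was 1.20 (standard error 0.17, limma adjusted p = 0.000374), or 2.30-fold.

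Sema4c, a ligand of Plxnb2, was at 7.12, 7.09, 6.77, 7.09 and 7.27 in the wild-type pituitaries. In the adenomas its lowest, median and highest values were 7.72, 7.93 and 8.26, again with no overlap. Its log2 fold change of 0.88 had the smallest adjusted p of the 55 genes (standard error 0.10, limma adjusted p = 1e-04). A further probe set of Sema4c gave a log2 fold change of 0.41 that was not called (adjusted p = 0.0646), so the probe sets of this gene differed in size.

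Sema4a, a semaphorin known from immune cells and the retina, had wild-type values of 6.82, 6.63, 6.49, 6.58 and 6.79 and adenoma values from 6.93 over a median of 7.19 to 7.85. All 9 adenoma values were above those of the wild type (log2 fold change 0.55, standard error 0.12, limma adjusted p = 0.0081). The macrophage markers, averaged over their list, ranged from 6.32 to 6.92 in wild-type pituitaries and from 6.86 to 7.73 in adenomas. Sema4g was higher by 0.73 (standard error 0.22, limma adjusted p = 0.0348), but only 4 of 9 adenoma values exceeded those of the wild type, and its call was lost in 8 of the 14 fits that each left out 1 sample. Its wild-type values were 5.86, 5.56, 5.93, 6.58 and 6.08, and its adenoma values ran from 6.15 over a median of 6.52 to 7.39.

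Sema5a, a transmembrane semaphorin with thrombospondin repeats, fell by 0.88 on the log2 scale (standard error 0.21, limma adjusted p = 0.00998). Wild-type pituitaries 1 to 5 were at 7.02, 7.96, 8.73, 8.11 and 7.51, and the adenoma values ran from 6.65 over a median of 7.03 to 7.32. The lowest wild-type values, of pituitaries 1 and 5, were those of the females, and 4 adenoma values lay below all 5. Sema6c, of the class that binds A-type plexins, fell by 0.53 (standard error 0.14, limma adjusted p = 0.0157). It was at 6.27, 5.87, 6.82, 6.77 and 6.40 in the wild type, with adenoma values of 5.70 at the lowest, 5.86 at the median and 6.26 at the highest. The call of Sema6c was lost without wild-type pituitary 3 or 4, at log2 fold changes no smaller in size than 0.43. Sema4f, Sema5b, Sema6b and Sema6d were not called, with log2 fold changes from -0.18 to 0.44.

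**Figure D2:**
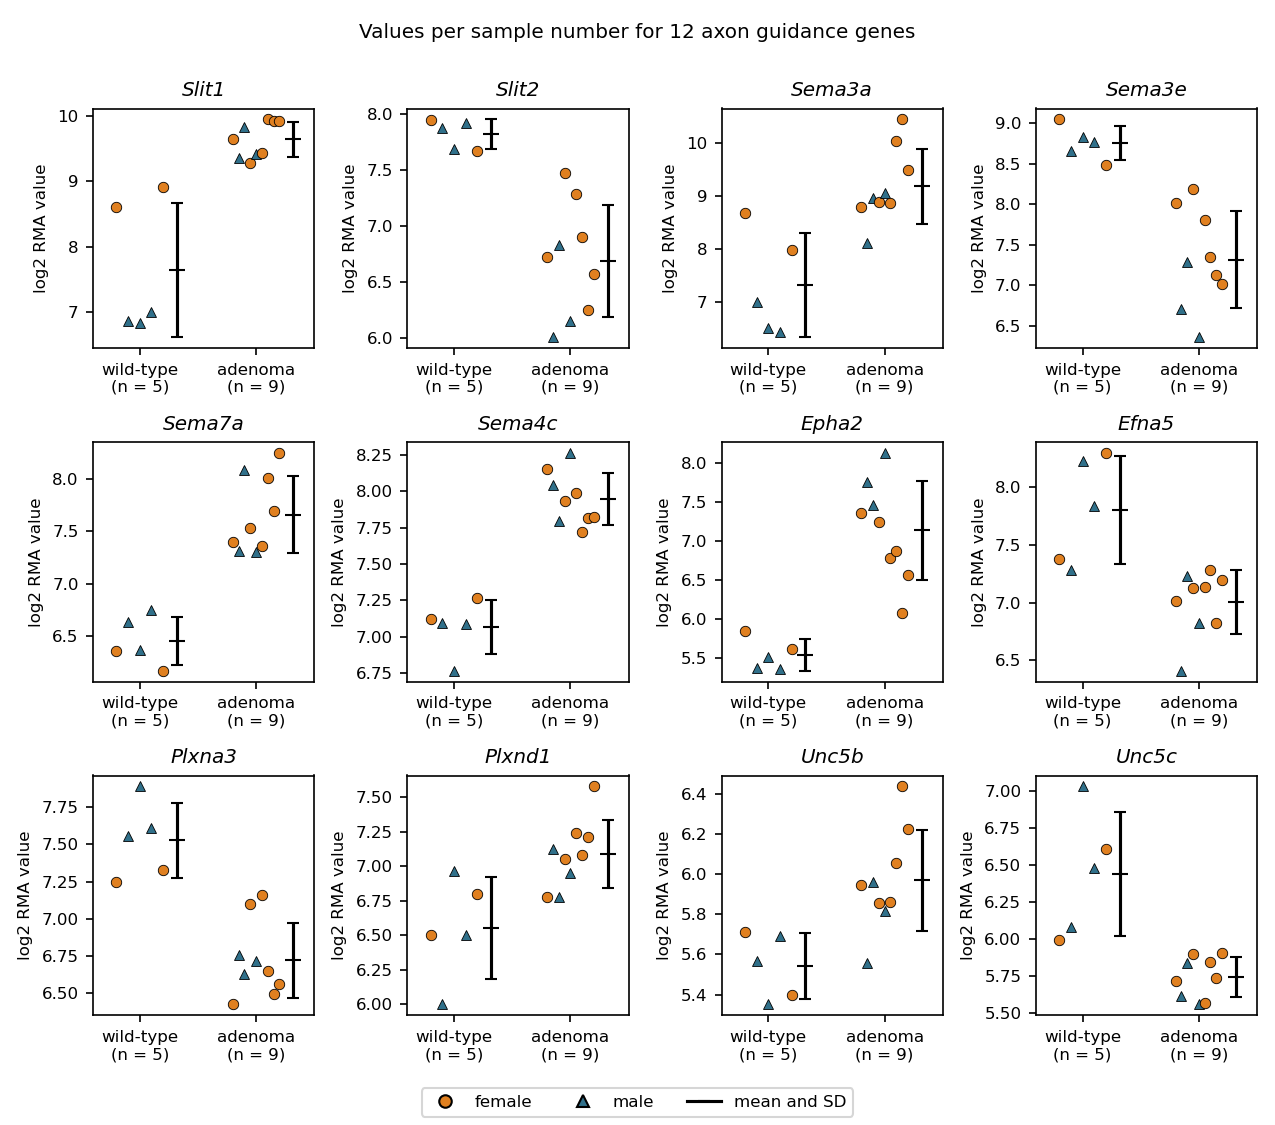
Log2 values of 12 guidance genes are plotted for each wild-type pituitary (n = 5) and each adenoma number (n = 9), females as circles and males as triangles, with the mean and SD beside each group. Slit1 and Sema3a show wild-type females apart from wild-type males, while for Slit2, Sema3e and Sema7a the wild-type values lie close together.

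Plexins are the signalling receptors of the semaphorins. Of 5 measured plexins, 1 was up-regulated and 3 were down-regulated. Plxnd1, the receptor of Sema3e and a plexin of endothelial cells, had wild-type values of 6.50, 6.00, 6.97, 6.50 and 6.80 and adenoma values from 6.77 over a median of 7.08 to 7.58. Its log2 fold change was 0.54 (standard error 0.15, limma adjusted p = 0.0258), so ligand and receptor of this pair changed in opposite directions. Without wild-type pituitary 2 or 4 the call of Plxnd1 was lost, with log2 fold changes down to 0.40 over the samples left out in turn. Of the endothelial markers 3 of 10 were higher, and the list's mean overlapped between the groups, from 7.08 to 7.44 in wild-type pituitaries and from 6.93 to 7.73 in adenomas.

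Plxna3, a partner of neuropilins, was at 7.25, 7.56, 7.89, 7.61 and 7.33 in the wild type and between 6.43 and 7.16 in the adenomas, with a median of 6.65. The groups did not overlap (log2 fold change -0.81, standard error 0.13, limma adjusted p = 0.00113). Plxnb2, the receptor of Sema4c, fell by 0.51 (standard error 0.11, limma adjusted p = 0.0074) from wild-type values of 10.27, 10.07, 10.28, 10.01 and 9.96 to adenoma values of 9.32 at the lowest, 9.58 at the median and 10.1 at the highest. The ligand Sema4c and its receptor were thus also called in opposite directions. However, Slit2 and Robo1 both fell, as did Ntn1 and Unc5c. Slit1 rose while the receptor Robo1 fell, and Unc5b rose while the ligand Ntn1 fell, so pairs of ligand and receptor went both ways. Plxna2 fell by 0.85 (standard error 0.24, limma adjusted p = 0.0275). Its values were 6.83, 7.97, 8.74, 8.17 and 7.25 in wild-type pituitaries and 6.48, 6.96 and 7.28 as the lowest, median and highest of the adenomas, so that the wild-type females at 6.83 and 7.25 lay inside the adenoma range. Without wild-type pituitary 2, 3 or 4, the males, Plxna2 lost its call, while over all samples left out in turn the log2 fold change ran from -1.09 to -0.61. Plxnb3 had a log2 fold change of 0.42 and was not called.

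The neuropilins, coreceptors of class 3 semaphorins, were not called. Nrp1, which also binds VEGF, was at 6.96 to 8.26 in wild-type pituitaries and at 7.33 to 8.48 in adenomas (log2 fold change 0.40, 95% interval -0.07 to 0.87, limma adjusted p = 0.226). Nrp2 had a log2 fold change of -0.29 (95% interval -0.55 to -0.03, limma adjusted p = 0.115), with wild-type values of 6.80 to 7.57 and adenoma values of 6.61 to 7.08.

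Eph receptors were mostly not called, with 1 rise and 1 fall among 7 EphA genes and no call among 4 EphB genes. Epha2, a receptor tyrosine kinase of epithelial cells with Efna1 as its main ligand, had wild-type values of 5.85, 5.37, 5.51, 5.36 and 5.62. Its adenoma values were 6.07 at the lowest, 7.24 at the median and 8.13 at the highest. All 9 adenoma values lay above the wild type, and the log2 fold change of 1.59 (standard error 0.27, limma adjusted p = 0.00117) was 3.02-fold. The spread was wider between adenomas (SD 0.63) than between wild-type pituitaries (SD 0.20).

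Among the promoters that could be read, the Epha2 promoter was the only one of the 55 genes with a full cyclic AMP response element, TGACGTCA, which reads the same on both strands. It begins 52 bases before the gene start. The stretch around it is shown because Epha2 was the only called gene whose promoter held any of the sites searched. The sequence is from RefSeq, build GRCr8, plus strand, at chr5:158888537-158888624, with the element in capitals.
Epha2: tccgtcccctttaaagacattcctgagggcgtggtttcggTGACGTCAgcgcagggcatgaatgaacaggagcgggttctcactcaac
Promoters of 250 bases before to 50 after the gene start were found for 45 of the 55 genes, 46 promoters in all. TGACGTCA stood in 1 of these 46, beside 1.83% of all 33469 promoters. The SF-1 type site AAGGTCA was in 0 of 46, beside 4.61% of all promoters, and the E-box CAGATG in 2 of 46, beside 16.6%, with both strands searched. Among called genes the promoters of Efnb3, Ntn1, Sema3a, Sema4g, Sema5a, Slit1, Slit2 and Unc5c were not analysed here.

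Efna1, the ligand of Epha2, was not called (log2 fold change 0.39, limma adjusted p = 0.297). It had wild-type values of 8.35, 7.46, 7.35, 7.17 and 8.87, its adenoma values ran from 7.68 over a median of 8.16 to 8.75, and the high wild-type values were those of the females. Efna5, a lipid-anchored ephrin, fell by 0.80 (standard error 0.18, limma adjusted p = 0.0074). It was at 7.38, 7.29, 8.23, 7.84 and 8.30 in wild-type pituitaries, and at 6.41, 7.13 and 7.28 as the lowest, median and highest of the adenomas. All 9 averaged adenoma values lay below, the closest by less than 0.01. The single lesions labelled 5 and 6 were at 7.43 and 7.31, above the lowest wild-type value.

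Epha8 fell by a small amount with little spread between the averaged values (log2 fold change -0.31, standard error 0.059, limma adjusted p = 0.0028). Lesions of one number differed by up to 0.42, more than the range of 0.23 over the 9 averaged adenoma values. Epha8 was dim, with a mean of 5.89 over the arrays, below the median of 6.43 over all probe sets. In wild-type pituitaries 1 to 5 it was at 6.02, 6.09, 6.14, 6.18 and 6.19, and the adenoma values lay between 5.68 and 5.90 with a median of 5.83. Efna4 and the transmembrane ephrin Efnb3 were also lower, by 0.26 (limma adjusted p = 0.0379) and by 0.32 (limma adjusted p = 0.0379), each with 7 of 9 adenoma values below the wild type. Efna4 was at 6.63, 6.31, 6.46, 6.68 and 6.62 in the wild type and at 6.14, 6.23 and 6.56 as the lowest, median and highest adenoma values. Efnb3 was at 5.44, 5.20, 5.50, 5.66 and 5.66 in the wild type and at 4.94, 5.13 and 5.46 in the adenomas in the same order. Both calls were lost when each array was centred on its median, and without any of 11 of the 14 samples for Efna4 and 10 of 14 for Efnb3. The other Eph receptors had log2 fold changes from -0.49 (Ephb1) to 0.47 (Epha7), and Efna2, Efnb1 and Efnb2 from -0.17 to 0.09.

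The Slits are secreted ligands of Robo receptors. The 3 measured Slits split into a rise, a fall and a gene that was not called. Slit1 had the largest rise of the 55 genes. Its wild-type values were 8.60, 6.87, 6.84, 7.00 and 8.92, with the females, pituitaries 1 and 5, far above the males. Its adenoma values lay close together, from 9.29 over a median of 9.65 to 9.94, and all 9 exceeded the wild type. The log2 fold change was 1.99 (standard error 0.32, limma adjusted p = 0.000818), or 3.98-fold.

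Slit2, the best known repellent of the family, moved the other way. It was at 7.94, 7.87, 7.69, 7.92 and 7.67 in wild-type pituitaries, a spread of 0.13 (SD, n = 5), and between 6.01 and 7.47 in adenomas, with a median of 6.72. No adenoma value reached the wild type (log2 fold change -1.13, standard error 0.21, limma adjusted p = 0.00233), a fall of 2.19-fold. Because this fall let Slit2 enter, its size and p-value are description and no independent result. Slit3 was at 6.56 to 8.05 in the wild type and 6.82 to 7.85 in the adenomas and was not called (log2 fold change -0.34, limma adjusted p = 0.279).

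Of 4 Robo receptors only Robo1 was called. Robo1 fell by 0.66 (standard error 0.21, limma adjusted p = 0.0418) from wild-type values of 8.49, 8.26, 8.55, 8.52 and 7.98 to adenoma values of 7.04 at the lowest, 7.98 at the median and 8.19 at the highest. Adenomas 1, 3, 8 and 9, at 7.48, 7.27, 7.07 and 7.04, lay below all wild-type values, while the other 5 lay at 7.98 or above. Leaving out wild-type pituitary 1, 2, 3 or 4, or adenoma 1, 3, 8 or 9, ended this call, as did centring the arrays and sex as a covariate (log2 fold change -0.61, adjusted p = 0.0675), while the log2 fold change stayed between -0.76 and -0.58 whichever sample was left out. Robo2 was at 7.41 to 8.26 in the wild type and 7.23 to 8.69 in the adenomas (log2 fold change 0.35, limma adjusted p = 0.305). The endothelial receptor Robo4 was at 5.42 to 5.75 and 5.60 to 5.89 (log2 fold change 0.18, limma adjusted p = 0.110), and Robo3 had a log2 fold change of -0.09.

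Netrin-1 attracts through Dcc and repels through Unc5 receptors. Ntn1 fell by 0.30 (standard error 0.080, limma adjusted p = 0.0178). The wild type was at 6.43, 6.23, 6.63, 6.48 and 6.34, and 8 of 9 adenoma values lay below them, with a lowest of 5.98, a median of 6.11 and a highest of 6.41 in adenoma 7. Without wild-type pituitary 3 its call was lost (log2 fold change -0.25).

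The Unc5 receptors moved apart. Unc5b, a receptor also found on vessels, was higher by 0.43 (standard error 0.12, limma adjusted p = 0.0264). It was at 5.71, 5.57, 5.35, 5.69 and 5.40 in the wild type, and its lowest, median and highest adenoma values were 5.56, 5.95 and 6.44, with 8 of 9 above the wild type. Leaving out wild-type pituitary 3 or 5 ended its call, at a log2 fold change no lower than 0.37. Unc5c fell by 0.70 (standard error 0.14, limma adjusted p = 0.0038) with no overlap, from 5.99, 6.08, 7.03, 6.48 and 6.61 to adenoma values between 5.56 and 5.90 with a median of 5.74. The mean of Unc5c over the arrays was 5.90, below the median of 6.43 over all probe sets.

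Dcc had wild-type values of 5.93 to 6.72 and adenoma values of 5.81 to 7.34 and was not called (log2 fold change 0.12, 95% interval -0.36 to 0.60, limma adjusted p = 0.75). Unc5a was at 6.98 to 7.43 and 6.58 to 7.52 (log2 fold change -0.03, limma adjusted p = 0.916). Unc50 and Unc5cl were not called, at log2 fold changes of 0.19 and -0.25.

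Some glial, stem and neuronal cells of the pituitary also make guidance molecules. The folliculostellate and stem cell markers averaged 7.18 to 8.32 in wild-type pituitaries and 6.57 to 7.26 in adenomas. The list of pituicytes and glia of the posterior lobe averaged 6.46 to 6.61 in wild-type pituitaries and 5.88 to 6.31 in adenomas, with 3 of 7 genes lower, and its defining marker Gfap was at 5.46 and 5.70 on average. Neuronal markers were higher for 2 and lower for 3 of 12 genes, and averaged 7.44 to 7.66 and 7.59 to 8.12. These shifts ran alongside the falls of Sema3e, Slit2, Efna5, Sema5a and Unc5c and the rises of Slit1 and Sema3a, and their part in those changes was not tested.

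Around these families stand other ligands, receptors and adhesion molecules of guidance, and downstream of them GTPases, kinases and collapsin response mediators that reshape the cytoskeleton. Of 65 genes of both kinds listed, 54 were measured, and 6 were higher (11.1%) and 9 lower (16.7%), beside 8.49% and 9.06% of all probe sets. The rises were Gap43, a growth cone protein, with a log2 fold change of 1.19, the GTPase Rnd2 with 1.11, Farp2, an exchange factor that acts under Sema3a, with 0.98, the kinase Pak3 with 0.87, Crmp1, a mediator of Sema3a signalling, with 0.73, and the GTPase Rac1 with 0.28. Their limma adjusted p ran from 0.00233 for Crmp1 to 0.0381 for Rac1. The falls were Met, a receptor tyrosine kinase that pairs with B-type plexins, at a log2 fold change of -1.0, Dpysl5 at -0.89, the netrin and RGM receptor Neo1 at -0.84, the adhesion molecule Nrcam at -0.80, the chemokine Cxcl12 at -0.65, the Unc5 ligand Flrt2 at -0.61, Ablim1 at -0.59, the exchange factor Arhgef11 at -0.45 and Ngef, an exchange factor under Eph receptors, at -0.19. Flrt2 had the smallest adjusted p of this list (0.000388). The median log2 fold change of the 54 genes was -0.04.

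Sex was unevenly spread, since all 3 male adenomas carried numbers with the prefix 08. After the wild-type values had been seen to split by sex, males were compared with females within each genotype, 2 females and 3 males in the wild type. Among the 55 genes 3 differed at a limma adjusted p under 0.05 in wild-type pituitaries, where 0.178% of all probe sets did. The male minus female difference was -1.85 for Slit1 (adjusted p = 0.0054), -0.97 for Sema6b (adjusted p = 0.024) and 1.26 for Plxna2 (adjusted p = 0.0386). At an unadjusted p under 0.05 there were 14 of the 55 genes (25.5%), beside 11.8% of all probe sets. Of these, 7 were lower in males (Slit1, Sema6b, Efna1, Sema3a, Nrp1, Sema3d and Unc5cl) and 7 were higher (Plxna2, Sema5a, Sema3f, Ephb1, Ephb2, Nrp2 and Ephb6). The means of 7 of 13 marker lists also did not overlap between these sexes, those of lactotrophs, thyrotrophs, corticotrophs, folliculostellate and stem cells, pituicytes and glia, Schwann and oligodendrocyte cells, and endothelial cells. With only 2 females and 3 males such gaps arise easily by chance, and 0 genes of these lists were called between the wild-type sexes. Lactotroph markers, for example, averaged 9.95 to 10.2 in wild-type females and 9.67 to 9.85 in wild-type males, and their part was not tested.

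In the adenomas, with 6 females and 3 males, 0 of the 55 genes were called between the sexes by limma and 8 had an unadjusted p under 0.05 (14.5%, beside 5.7% of all probe sets). For Slit1 the female and male means were 9.69 and 9.54 in adenomas, against 8.76 and 6.90 in wild-type pituitaries. For Sema6b the adenoma means were 8.18 and 8.07, against 8.28 and 7.31. Accordingly the log2 fold change of Slit1 was 0.93 in females and 2.63 in males, that of Plxna2 was 0.04 in females and -1.60 in males, and that of Sema6b was -0.10 in females and 0.76 in males. The interaction of genotype and sex called 0 of the 55 genes and 0% of all probe sets in limma, with 11 of the 55 genes and 6.78% of all probe sets at an unadjusted p under 0.05, and a smallest adjusted p of 0.124 for Slit1. With the prefix as a block, Slit1 was called (adjusted p = 0.0468). Epha2 rose by 1.08 in females and 2.37 in males, and this interaction was not called (adjusted p = 0.499).

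**Figure D3:**
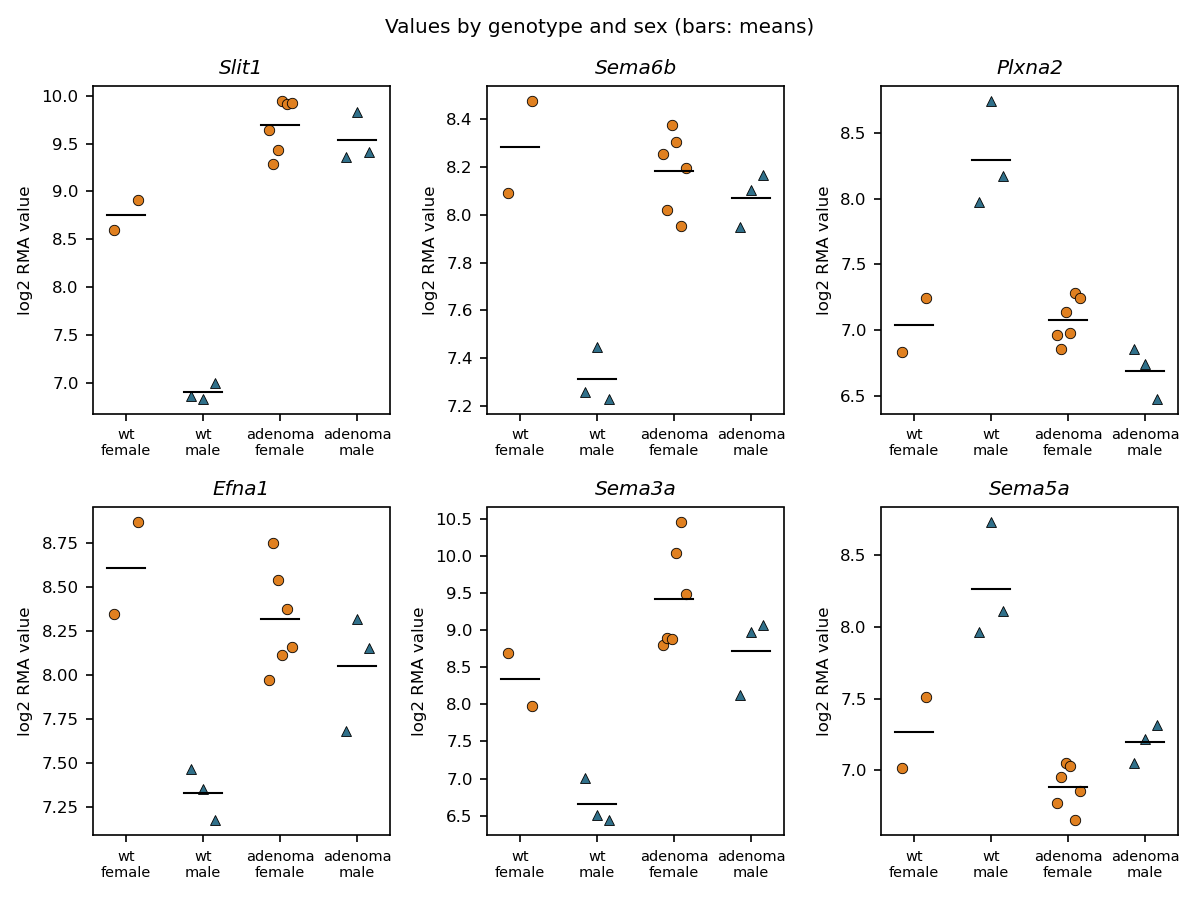
Log2 values of 6 genes are plotted by genotype (wt, wild-type) and sex, with horizontal bars at the means. The wild-type sexes stand apart for all 6 genes and the adenoma sexes lie closer together, with Slit1 means of 9.69 and 9.54. The genes shown are ones whose wild-type sexes differed, so the choice largely fixed this picture. The interaction of genotype and sex called 0 of the 55 genes.

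Among the 9 adenomas, the slope on age called 0 of the 55 genes by limma, and 0.00342% of all probe sets. At an unadjusted p under 0.05 were 13 of the 55 genes and 11.8% of all probe sets. Plxna3 fell by 0.11 per month (unadjusted p = 0.0019, adjusted p = 0.179), and Epha3 had a slope of -0.24 per month (adjusted p = 0.197). The slopes of Slit1 and Slit2, 0.10 and -0.19 per month, had the signs of their differences between adenomas and wild type, and neither was called. Without adenoma 2, Epha3 alone was called (adjusted p = 0.0435).

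Lesions of one number could be compared for 5 numbers. For 44 of the 55 genes the widest range between lesions of one number was narrower than the range over the 9 adenoma values. A range over 9 values tends to be wider than one over fewer lesions, so this count cannot show that lesions of one number are alike. Epha2 differed by at most 0.46 between lesions of one number and by 2.05 over the numbers, and Slit2 by 0.66 and 1.46. The widest gap of a called gene was that of Sema7a, where the lesion labelled 5 was at 9.25 and the other lesions of adenoma 3 at 7.28 and 7.71. Without this lesion adenoma 3 was at 7.49 in place of 8.08, still above all wild-type values, and all 23 calls were kept.

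The prefix of the sample numbers, 08 or 09, was used as a split of the samples, since nothing in the labels says what it stands for. All 23 called genes had the same direction in both, which their being called on the pooled samples largely fixes. Of the 32 genes not called, 12 had opposite directions. Slit1 had log2 fold changes of 1.77 and 2.22 with the prefixes 08 and 09, Slit2 of -1.27 and -1.01, Sema3e of -1.54 and -1.36, Sema7a of 1.03 and 1.40, and Sema4c of 0.93 and 0.79. Sema3a differed more, at 0.92 and 2.73, as did Epha2 at 1.98 and 1.07, Sema4g at 1.18 and 0.33 and Unc5c at -0.32 and -0.95. Slit3 went from 0.33 with prefix 08 to -0.85 with prefix 09, and Ephb1 from 0.11 to -0.96.

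**Figure D4:**
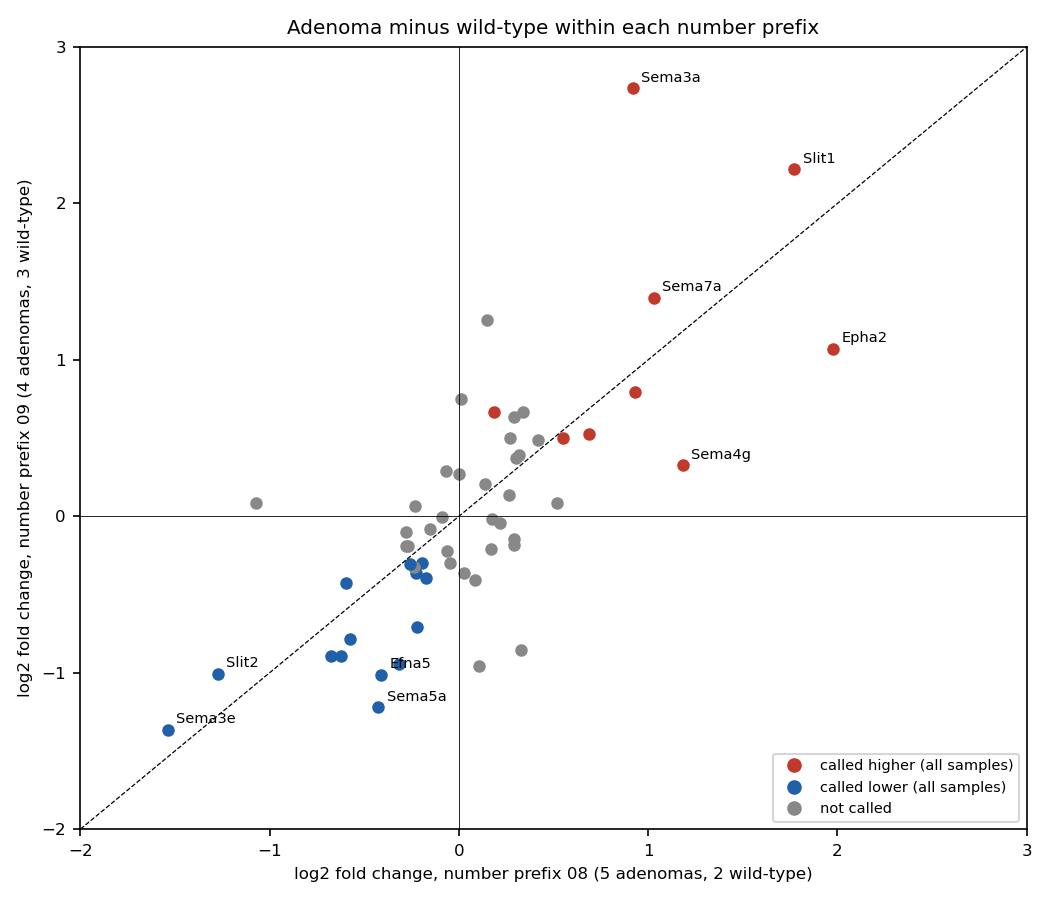
Each point is 1 of the 55 genes, with the log2 fold change among numbers of prefix 08 (5 adenomas, 2 wild-type) on the x axis and of prefix 09 (4 adenomas, 3 wild-type) on the y axis, and the dashed line marks equal values. Sema3a lies farthest above the line, at 0.92 and 2.73.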

How the data were processed

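Affymetrix Rat Gene 1.0 ST arrays held RNA of 16 lesions and 5 wild-type pituitaries. Per the labels and the study's methods, the authors summarised them by RMA in Affymetrix Expression Console and deposited log2 values of 29214 probe sets. For both, the version is not given in the sources used here. RMA levels out shifts of most genes and compresses folds of dim probes. The number of arrays limits the precision. Adenoma lesions were averaged by sample number (9 values). limma 3.58.1 in R 4.3.3 fitted the group as the only term to all probe sets, with Benjamini-Hochberg adjustment and calls at an adjusted p under 0.05. The fit was tested on simulated data. P-values measure the spread between these samples. A gene with several probe sets was read from the brightest on average over the arrays. Values were given for every called gene, for genes the paper lists and for their partners. The naming rule that set the members, the lists and the tests were written with earlier results of these data known. Sex, age, prefix, replicate block, other normalizations, thresholds and left-out samples were tried as alternatives. Protein sequences, and guidance genes other than Slit2 that the array annotation does not name, were not analysed here.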

Additional observations from a re-analysis of the deposited data

Results flagged for a closer look

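Among the 23 called genes, the lowest and highest value of each group was checked against the rest by Dixon's criterion, and 2 of the 46 groups had a value set apart, where chance gives about 1 in 20. Ntn1 in adenoma 7 was at 6.411, and the next highest adenoma value was 6.153. Sema4a in adenoma 3 was at 7.853, and the next highest was 7.272.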

How the results depend on the processing

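The main counts were 9 genes higher and 14 lower. With each sample left out in turn they ran from 7 to 9 higher and from 8 (without wild-type pituitary 3) to 16 lower (without wild-type pituitary 1), with 9 lower without wild-type pituitary 4. With prefix 08 alone 2 were higher and 0 lower, with adenomas of 7 or 8 months alone 1 and 0, and with a fold over 2 as well 4 and 2. An adjusted p under 0.01 left 8 lower genes. With dim probe sets left out 8 lower genes remained, since Efna4, Efnb3, Epha8, Ntn1, Sema6c and Unc5c dropped out, as did the higher gene Unc5b. The 16 called genes still present kept their calls. In splits chosen after seeing the data, females alone gave 1 higher and 0 lower, and males alone 6 lower genes. Plxna2 reversed in females alone, at a log2 fold change of 0.0375 (adjusted p = 0.927). The sex interaction called 1 gene with the prefix as a block, and the age slope 0 to 1 with an adenoma left out. The causes of these changes were not tested, apart from the fewer samples or genes in each. Calls of 14 of the 23 genes were kept in every fit that left out 1 sample, and no other called gene reversed under any alternative. With the replicate block, 6 genes were higher and 10 lower, and 16 of 23 calls were kept. The deviations of samples with the same label number correlated at -0.05 to 0.20, so the numbers were not read as pairs.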
